A study of Homo sapiens with 18 samples.

Results

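The response of ABC-1 cells to CCS1477 was measured as the difference between 3 libraries treated with CCS1477 and 3 libraries treated with DMSO, over every gene row of the ABC-1 table. The table held 16910 gene rows, of which 13543 reached 1 CPM (reads of a gene per 1000000 reads of the library) in at least 3 of the 6 libraries and were tested. The study covered 18 libraries of 3 human lung cancer cell lines, and the 6 ABC-1 libraries are one line of it. A total of 20374 genes had a row in at least 1 of the 3 tables. ABC-1 is an established line labelled lung adenocarcinoma, and the series text calls it wildtype, in contrast to H460 and H2023, which it calls NRF2-activated. Cells of both groups were harvested after 24 h, either with CCS1477 at 5 µM or with DMSO, the solvent, as control. The dose is given as 5 µM in the sample descriptions and as 5 mM in the series text, and the sample descriptions were followed. Whether replicate libraries came from separate cultures is not stated in the labels, and a p-value here reflects only how these libraries vary, which may be technical variation.

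CCS1477, also named inobrodib, is a small molecule that occupies the bromodomain shared by the coactivators p300 (EP300) and CBP (CREBBP). The bromodomain reads acetylated lysines, and the acetyltransferase domain of the same proteins writes acetyl marks on histones at enhancers and promoters, from which RNA polymerase II transcribes nearby genes. NRF2 (NFE2L2) is a transcription factor that KEAP1 keeps low in unstressed cells, and in lung cancers with a defect of that control it drives genes of detoxification and redox balance.

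The 6 ABC-1 libraries held 14483979 to 17483291 reads, and mitochondrially encoded RNAs took 1.58 to 2.40% of them. DMSO replicate 3 had the highest mitochondrial share, 2.40%, beside 1.58 and 1.69% in the other DMSO libraries and 1.91 to 2.08% with CCS1477, and without it 4321 genes rose and 4373 fell. In H460, 1 CCS1477 library had a lower mitochondrial share than the other 5 libraries of that line, 0.795% against 1.77 to 2.06%, and comparisons with H460 are given with and without it. Of 10 markers of adenocarcinoma and simple epithelium, 7 were measured and each reached at least 1 CPM with DMSO. KRT18, KRT19, EPCAM and CDH1, markers of simple epithelium, averaged 1502, 1047, 479 and 244 CPM with DMSO, while NKX2-1, the lung lineage factor, and KRT7 averaged 1.34 and 1.89 CPM. NAPSA, SFTPB and SFTPC, the remaining adenocarcinoma markers, were not analysed here, so the label was borne out by epithelial markers and hardly by lung markers. The summed level of the 7 markers went from a range of 3247 to 3471 CPM with DMSO to 4106 to 4113 CPM with CCS1477. Of the 7, 2 rose and 3 fell, and KRT18, at 2184 CPM with CCS1477, carried most of the higher sum. MUC1 went from 98.4 to 33.1 CPM, and NKX2-1 and KRT7 went down to 0.624 and 0.696 CPM. Of 8 squamous markers SOX2 and TP63 were measured, and their sum went from 147 to 156 CPM down to 65.3 to 69.2 CPM. Of 6 neuroendocrine markers only SYP was measured, at 0.639 to 0.829 CPM with DMSO and 4.15 to 5.66 CPM with CCS1477. CD68, COL1A1 and VWF, the 3 measured of 11 markers of immune, fibroblast and endothelial cells, summed to 10.4 to 13.1 CPM and then to 24.2 to 25.6 CPM, and the part of these marker shifts in the results was not tested.

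The genes of the proteins that CCS1477 binds barely moved at the RNA level. EP300 stood at 223, 221 and 228 CPM with DMSO and 225, 229 and 228 CPM with CCS1477, and its change of -0.04 ± 0.03 on the log2 scale (SE, n = 3 in each group) did not pass the threshold, with an adjusted p of 0.311 from limma. Its mean CPM was slightly higher with CCS1477 while the change is negative, because CPM uses library totals and the change the deposited scaling; with library totals the change was 0.02. CREBBP changed by -0.10 ± 0.04, with an adjusted p of 0.0546, and passed the threshold when libraries were scaled by relative log expression (adjusted p = 0.0182). NFE2L2 stood at 96.4, 106 and 93.1 CPM with DMSO and 121, 125 and 123 CPM with CCS1477, so that the groups did not overlap, and rose by 0.26 ± 0.06 (adjusted p = 0.00146). KEAP1, its inhibitor, fell by 0.45 on the log2 scale (adjusted p = 6.85e-06). MYC, the growth-promoting transcription factor, had overlapping groups, and its change of -0.16 ± 0.07 (adjusted p = 0.0459) lost the threshold under 6 of the alternatives tried, with library totals among them (adjusted p = 0.178). An inhibitor that occupies a protein need not alter its RNA, so none of these values checks that the compound acted.

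The response covered most of the tested genes, with rises and falls in near-equal numbers. With limma and a Benjamini-Hochberg adjusted p under 0.05, 8949 of 13543 genes passed, which is 66.1% of those tested: 4535 rose (33.5%) and 4414 fell (32.6%). The 3 CCS1477 libraries did not overlap the 3 DMSO libraries in 9533 genes (70.4%). Most changes were small, with a median absolute log2 change of 0.36 over all tested genes. A rise of at least 1 on the log2 scale, a doubling of scaled reads plus the deposited constant of 4, was reached by 820 genes (6.05%), and a fall of that size by 1112 (8.21%). At a change of at least 2 the counts were 136 and 213, at 3 they were 19 and 46, and at 4 they were 2 and 10. The plot of change against level shows these tails at all levels, with the deepest falls among genes of intermediate level.

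**Figure D1:**
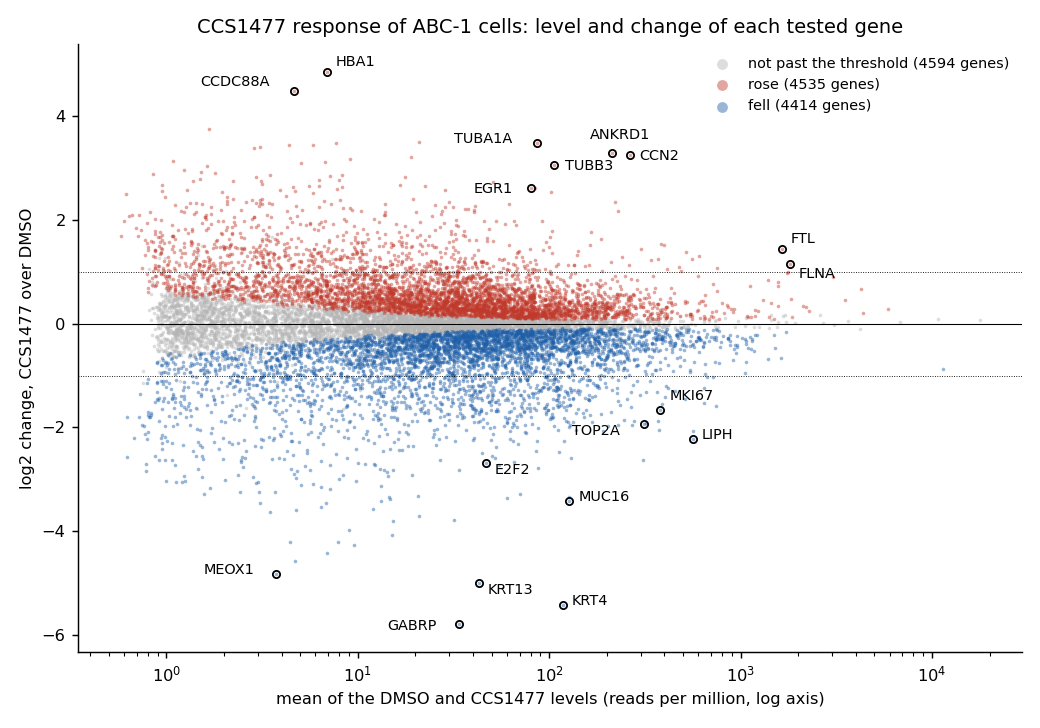
Mean level of each of the 13543 tested genes in ABC-1 (CPM, log axis) against its log2 change with CCS1477, coloured by whether it rose, fell or did not pass the threshold. Dotted lines mark a change of 1 in either direction, which 820 genes passed upwards and 1112 downwards.

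In total RNA of a culture, fewer cells of a kind and less of an RNA per cell cannot be told apart. The 1112 genes that fell by at least 1 took 7.51 ± 0.0495% of the reads with DMSO and 2.77 ± 0.0591% with CCS1477 (SD, n = 3). The 820 genes that rose by as much took 1.39 ± 0.00816% and then 3.77 ± 0.0428%. The share lost by the first set was larger than the share gained by the second. Split into 5 classes of near-equal size by mean level, 18.7% of the lowest class and 45.7% of the highest fell, whereas the share that rose lay between 25.3 and 37.0% in every class. Rises of at least 1 went the other way, with 12.4% of the lowest class and 2.18% of the highest. Depth grows with level and makes small changes easier to call, and its part in this gradient was not tested. By gene type, 4137 of 11682 protein-coding genes rose and 4100 fell, and of 430 lincRNA genes 86 rose and 74 fell. Chromosome 6 had the largest share of genes that fell by at least 1 of the chromosomes compared, 99 of 680 (14.6%). It carries the main histone gene cluster, and the part of histone genes in this share was not tested.

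CCN2, ANKRD1 and the tubulin genes TUBA1A and TUBB3 were the most abundant of the genes that rose by more than 3. CCN2, a secreted matricellular protein and a textbook YAP/TEAD target (chromosome 6, 131948176 to 131951373, on GRCh38), stood at 49.0, 48.5 and 47.5 CPM with DMSO and 485, 479 and 487 CPM with CCS1477. Its mean rose 10.0-fold, a log2 change of 3.26 ± 0.04 (adjusted p = 5.59e-13). ANKRD1, a nuclear ankyrin-repeat protein regulated by the same factors (chromosome 10, 90912096 to 90921276), stood at 36.8, 39.0 and 37.2 CPM with DMSO and 388, 390.3 and 379 CPM with CCS1477, a log2 change of 3.29 ± 0.04 (adjusted p = 1.81e-12). In both genes the highest DMSO library lay several-fold under the lowest CCS1477 library. TUBA1A, an alpha-tubulin of developing neurons (chromosome 12, 49184796 to 49189324), stood at 14.3, 13.5 and 12.4 CPM with DMSO and 162, 153 and 164 CPM with CCS1477 and rose by 3.49 ± 0.06. The alpha-tubulin genes TUBA1B and TUBA1C, its close relatives, fell by 0.67 and 0.50, and reads shared between such copies could be split either way in counting. TUBA1A also overlaps TUBA1C on the opposite strand, and the use of strand in counting is not given in the sources used here. TUBB3, the neuronal beta-tubulin (chromosome 16, 89921392 to 89938761), stood at 21.7, 21.3 and 21.7 CPM with DMSO and 193, 187 and 190.1 CPM with CCS1477, a log2 change of 3.06 ± 0.04. The microtubule-binding protein gene TPPP rose by 3.52 ± 0.13, from 3.08 ± 0.634 to 38.9 ± 1.24 CPM (mean ± SD, n = 3).

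HBA1, which encodes alpha-globin (chromosome 16, 176680 to 177522), had the highest log2 change of the genes named, 4.87 ± 0.31 (adjusted p = 1.23e-07), with 0.446, 0 and 0.276 CPM with DMSO and 12.8, 12.9 and 14.8 CPM with CCS1477. Its near-identical copy HBA2 was not tested, so the split of reads between them is uncertain. Rises above 3 were also found in the secretion regulator BAIAP3 (3.44), the connexin GJA3 (3.39), the semaphorin SEMA4F (3.22), the kinase DYRK3 (3.19), IFFO2 (3.12) and the fatty acid transporter SLC27A1 (3.10). CCDC88A, an actin-binding regulator of migration, stood at 0.191, 0.319 and 0 CPM with DMSO and 10.2, 9.24 and 8.02 CPM with CCS1477, and its rise of 4.48 ± 0.29 was 2.83 when reads listed under its transcripts were added. SNHG5, a host gene of small nucleolar RNAs, stood at 0, 0 and 1.73 CPM with DMSO and 7.15, 6.46 and 3.13 CPM with CCS1477, and its rise of 3.41 ± 0.67 became 1.71 with transcript reads. With a constant of 0.1 in place of 4 the rises were 6.88 for CCDC88A and 6.95 for SNHG5, so the size for both depends on the constant and on how the table divides reads between gene and transcript rows. HBA1, BAIAP3, CCDC88A and SNHG5 reached 1 CPM in every CCS1477 library but not in every DMSO library, so the filter favoured their rise. The highest value of GJA3 over the alternatives tried was 4.29, and it may have passed the filter in the same way.

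**Figure D2:**
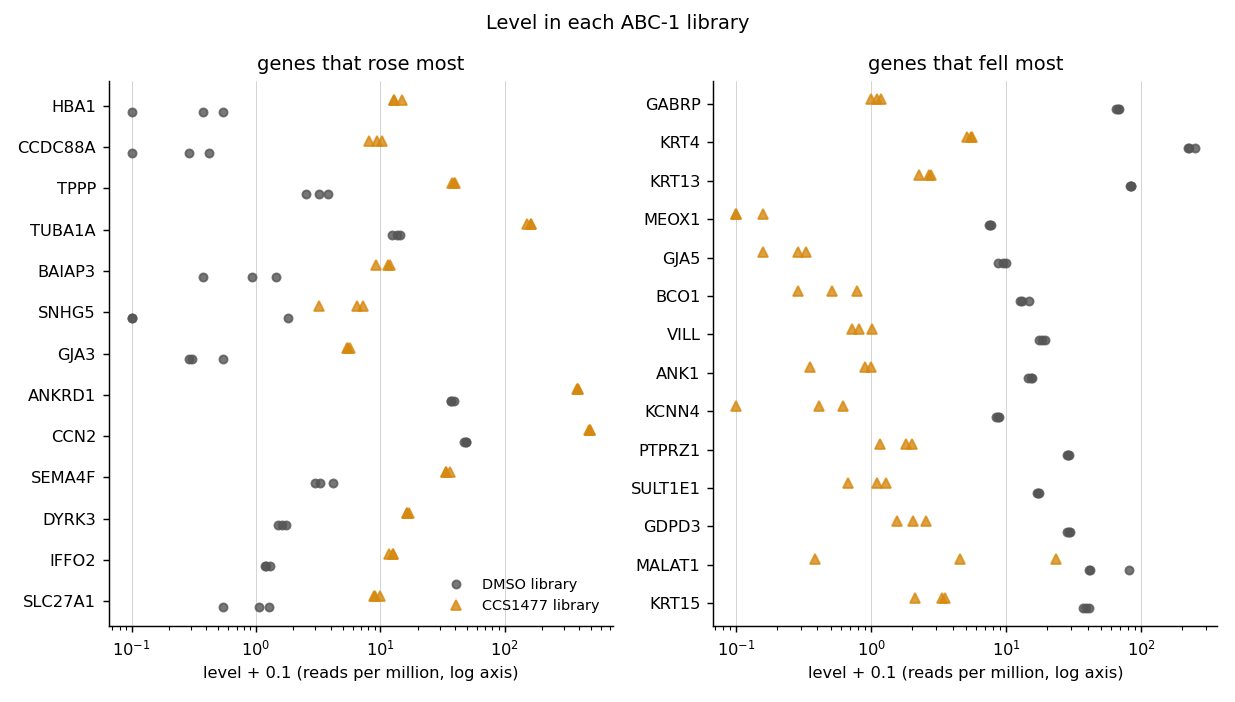
Level in each of the 3 DMSO libraries (grey circles) and 3 CCS1477 libraries (orange triangles) of ABC-1, in CPM plus 0.1 on a log axis, for 13 of the 14 genes that rose most and the 14 that fell most among genes whose higher group averaged 5 CPM or more. The libraries of the 2 groups do not overlap in any gene shown, and MALAT1 has the widest spread within the CCS1477 libraries.

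GABRP and the keratin genes KRT4 and KRT13 had the lowest log2 changes on the deposited scale, where the constant of 4 shrinks the change of lower genes. GABRP, a GABA receptor subunit of epithelial tissue (chromosome 5, 170763350 to 170814047), stood at 65.0, 68.2 and 67.6 CPM with DMSO and 1.09, 0.888 and 1.00 CPM with CCS1477, a fall by a factor of 67.4 in the mean and a log2 change of -5.80 ± 0.11 (adjusted p = 1.20e-11). KRT4, a keratin of stratified mucosa (chromosome 12, 52806549 to 52814551), stood at 248, 220 and 225 CPM with DMSO and 5.49, 5.39 and 5.01 CPM with CCS1477, a log2 change of -5.44 ± 0.06. KRT13, the keratin that pairs with it (chromosome 17, 41500981 to 41505705), stood at 83.5, 82.0 and 84.2 CPM with DMSO and 2.17, 2.67 and 2.57 CPM with CCS1477, a log2 change of -5.00 ± 0.09. Both members of that keratin pair thus went from well measured to a few CPM in every treated library. KRT15, a basal keratin, fell by 3.72. MEOX1, a homeobox transcription factor, had 343 reads over the DMSO libraries and 1 read over the CCS1477 libraries, a ratio of 0.00264 with a 95% exact counting interval of 6.70e-05 to 0.0149, which covers counting error only. Its log2 change was -4.84 on the deposited scale and -9.11 with a constant of 0.1. GABRP and MEOX1 reached 1 CPM in every DMSO library but not in every CCS1477 library, so the filter favoured their fall.

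Further genes fell by more than 3. The connexin GJA5 fell by 4.57, the carotenoid-cleaving enzyme BCO1 by 4.42, the villin-like gene VILL by 4.26, the membrane-skeleton protein ANK1 by 4.22 and the calcium-activated potassium channel KCNN4 by 4.22. With a constant of 0.1 the change of KCNN4 was -6.43. Over the alternatives tried, the lowest values of GJA5, BCO1 and ANK1 were -6.06, -5.18 and -4.92. KCNN4 and these genes may have passed the filter through the DMSO libraries alone, which would favour their fall. PTPRZ1, a receptor tyrosine phosphatase, fell by 4.07, the oestrogen sulfotransferase SULT1E1 by 3.97 and the phosphodiesterase GDPD3 by 3.81. MUC16, the membrane mucin that carries the CA125 antigen (chromosome 19, 8848844 to 8981342), stood at 229.7, 234 and 234 CPM with DMSO and 22.7, 24.0 and 20.5 CPM with CCS1477, a log2 change of -3.42 ± 0.06 (adjusted p = 5.86e-12). MALAT1, an abundant nuclear lincRNA, stood at 41.5, 40.6 and 81.2 CPM with DMSO and 0.286, 4.44 and 23.2 CPM with CCS1477, a wide spread within both groups. Its change of -3.78 ± 0.98 (adjusted p = 0.00533) turned to 0.74 (adjusted p = 1.37e-08) when reads listed under its transcripts were added, so no direction is given for it.

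Among abundant genes, ferritin stood out on the rising side and a lipase on the falling side. FTL, the ferritin light chain, which stores iron (chromosome 19, 48965301 to 48966878), stood at 880.1, 829 and 852 CPM with DMSO and 2450, 2340 and 2475 CPM with CCS1477, a log2 change of 1.45 ± 0.04 (adjusted p = 1.43e-10). FTH1, the heavy chain, rose by 1.31 ± 0.05, and pseudogenes of both chains could share reads with them. The actin crosslinker FLNA rose by 1.15 ± 0.04, the glucose transporter SLC2A3 by 1.08 ± 0.04, the tight-junction claudin CLDN6 by 1.26 ± 0.04 and the retrotransposon-derived PEG10 by 1.00 ± 0.04. LIPH, a membrane-bound phospholipase that makes lysophosphatidic acid (chromosome 3, 185506262 to 185552613), stood at 927, 914 and 915 CPM with DMSO and 206, 204 and 208 CPM with CCS1477, a log2 change of -2.21 ± 0.03 (adjusted p = 2.80e-12). The amino acid transporter SLC38A1 changed by -1.02 ± 0.03, the choline transporter SLC44A2 by -1.02 ± 0.03, ANLN, a scaffold of the cytokinetic ring, by -1.53 ± 0.04 and the exchange factor PLEKHG4B by -1.58 ± 0.03. Each of these genes had groups that did not overlap.

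The cell cycle lists fell almost without exception. Over all tested genes the median log2 change was 0.01, with 33.5% rising and 32.6% falling. Of the 24 tested genes of G2/M and mitosis none rose and 24 fell, each by at least 1, with a median of -1.64. Among 27 genes of G1/S and DNA replication, 26 fell, 19 of them by at least 1, with a median of -1.29. All 19 tested replication-dependent histone genes fell, with a median of -1.30, and 18 of 21 genes of homologous recombination repair fell, with a median of -1.04. In the plot of 16 gene lists, a selection, the medians of these 4 lists lie lowest. Among lists not plotted, the 5 tested secretory and mucous genes had a median of -1.23 and the 2 squamous markers of -1.59. Of 760 genes tested over all lists, 15 reached 1 CPM in every CCS1477 library but not in every DMSO library and 13 the reverse, so that the filter itself favoured their direction, and none of them belongs to the 4 lists. The 15 are FOSL1, EGR2, EGR3, KLF2, ITGA5, NGFR, BAIAP3, PFKP, ALDOC, ANKRD37, MT-RNR1, MT-RNR2, PER1, DLL4 and SYP. The 13 are HEXIM2, AKR1C2, ABCC2, ME1, KRT7, LOX, NKX2-1, ATG9B, IFIT3, ISG20, CYP1A1, TP63 and VWF.

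**Figure D3:**
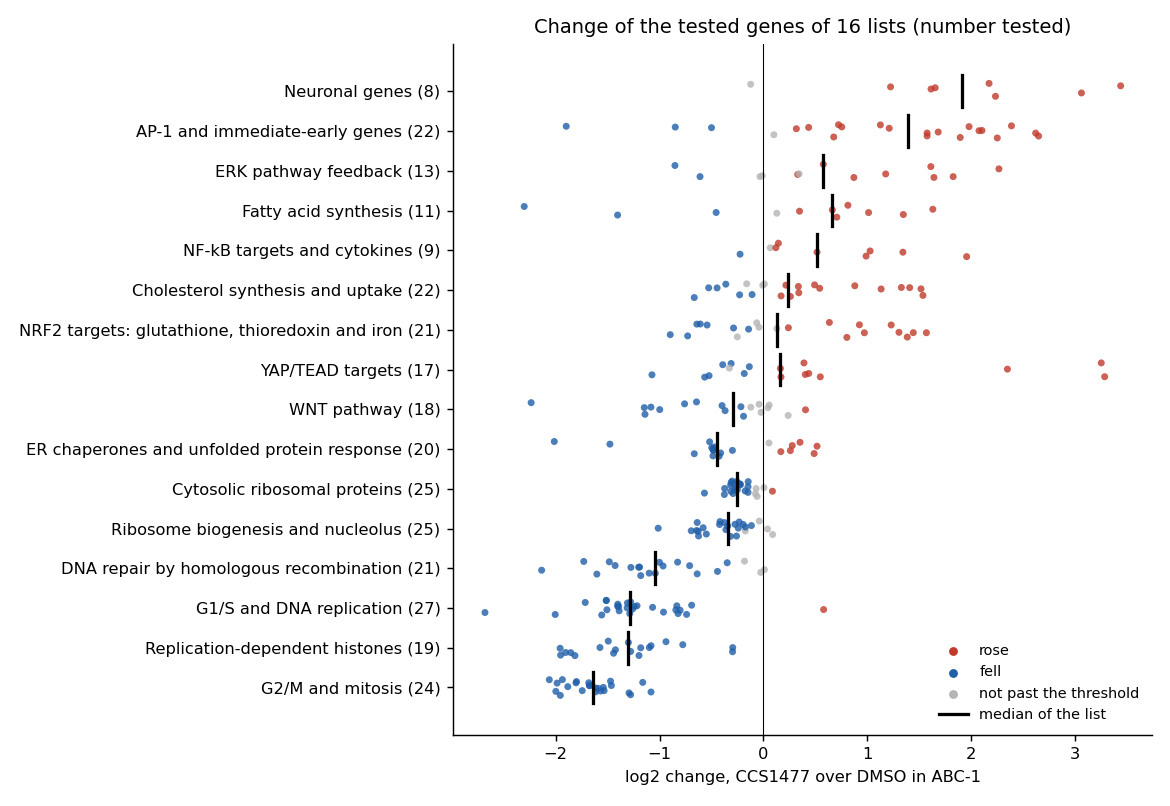
Log2 change in ABC-1 of each tested gene of 16 lists (points, red for rose, blue for fell, grey for not past the threshold) with the list median as a black bar; the number tested stands beside each list. All 24 G2/M genes lie between -2.06 and -1.08, while 18 of the 22 AP-1 and immediate-early genes rose.

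TOP2A, the topoisomerase that untangles replicated DNA (chromosome 17, 40388516 to 40417950), stood at 487, 502 and 492 CPM with DMSO and 132, 143 and 128 CPM with CCS1477, a log2 change of -1.94 ± 0.04 (adjusted p = 4.56e-11). UBE2C, which marks mitotic cyclins for destruction, fell by 2.06, the mitotic kinesin KIF20A by 2.00 and the spindle kinase AURKA by 1.96. Cyclin genes CCNA2, CCNB1 and CCNB2, the activators of the mitotic kinase, fell by 1.99, 1.68 and 1.47, and CDK1, that kinase, by 1.62. PLK1, the polo-like kinase of mitotic entry, changed by -1.80, FOXM1, a transcription factor of mitotic genes, by -1.28, the proliferation antigen MKI67 by -1.67 and the kinetochore protein CENPF by -1.88. PTTG1, securin, had the smallest fall of the list, 1.08. In G1/S, E2F2, a transcription factor of replication genes (chromosome 1, 23506430 to 23531220), stood at 80.7, 82.9 and 78.1 CPM with DMSO and 13.5, 13.6 and 11.6 CPM with CCS1477, a log2 change of -2.68 ± 0.07. The helicase subunit MCM5 stood at 141, 137 and 139 CPM with DMSO and 36.3, 36.8 and 34.5 CPM with CCS1477, a log2 change of -2.00 ± 0.04, and MCM2 fell by 1.72. CCNE1, cyclin E, was the single member that rose, by 0.58 ± 0.20 (adjusted p = 0.0212), and its call was lost without CCS1477 replicate 1 or without DMSO replicate 3.

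Linker histone genes H1-5 and H1-3 changed by -1.95 and -1.96. Histone genes are near-identical copies in clusters and most of their mRNAs lack a poly(A) tail, so counting and the selection of RNA, which is not given in the sources used here, can both affect these values. In repair, FANCD2, of interstrand crosslink repair, fell by 1.73 and BRCA1, of homologous recombination, by 1.43. CDKN1A, the CDK inhibitor p21 (chromosome 6, 36676460 to 36687339), moved against the cyclins. It stood at 19.7, 17.9 and 22.0 CPM with DMSO and 106, 103 and 102 CPM with CCS1477, a log2 change of 2.32 ± 0.06 (adjusted p = 1.72e-10). CDK2 and CDK4, kinases of the G1 to S passage, fell by 1.54 and 0.94, whereas CDK6, which acts beside CDK4, rose by 0.82. Of 14 tested genes of cyclins, CDK4/6 and CDK inhibitors 3 rose and 7 fell, and 5 rose with library totals or without DMSO replicate 2.

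Promoter sequence was set beside these lists because cell cycle genes are known to share short promoter elements. RefSeq promoters (GRCh38.p14) of 250 bases before the start were found for 10058 of 13528 tested gene symbols, taking the first entry of each gene, and the motifs were searched on both strands. The CHR element TTTGAA was present in 9 of 18 G2/M promoters (50.0%), against 8.45% of tested genes and 13.6% of all 27305 promoters, and the CCAAT box CCAAT in 16 of 18 (88.9%), against 36.0% and 33.0%. The E2F site TTTNNCGC was present in 12 of 23 G1/S promoters (52.2%), against 9.39% and 5.93%. The TATA box TATAAA was present in 12 of 18 histone promoters (66.7%), against 5.32% and 11.1%, and CCAAT in 15 of 18 (83.3%). Among genes that fell by at least 1, 17.1% of 819 promoters held TTTGAA, and among those that rose by at least 1, 5.94% of 589. The last 150 bases before the start of 4 genes are shown because each falls in one of these lists and holds its element, written 5′ to 3′ along the gene with the matches in capitals.
CCNB2: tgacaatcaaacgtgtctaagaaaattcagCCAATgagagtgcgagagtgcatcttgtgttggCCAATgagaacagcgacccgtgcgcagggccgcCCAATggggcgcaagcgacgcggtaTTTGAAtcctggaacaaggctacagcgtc
PLK1: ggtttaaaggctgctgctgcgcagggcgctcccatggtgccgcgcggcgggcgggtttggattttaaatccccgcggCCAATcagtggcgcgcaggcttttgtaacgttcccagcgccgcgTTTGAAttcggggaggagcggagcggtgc
E2F2: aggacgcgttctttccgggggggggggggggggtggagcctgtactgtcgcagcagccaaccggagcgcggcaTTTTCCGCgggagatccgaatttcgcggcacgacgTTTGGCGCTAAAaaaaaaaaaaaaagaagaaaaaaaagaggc
H1-3: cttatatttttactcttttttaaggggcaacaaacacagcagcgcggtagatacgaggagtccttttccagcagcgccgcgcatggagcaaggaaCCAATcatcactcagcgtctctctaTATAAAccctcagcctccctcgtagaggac
The window of CCNB2 (chr15:59104996-59105145, plus strand) has TTTGAA beginning 29 bases before the start and CCAAT at 120, 87 and 54 bases before it. That of PLK1 (chr16:23678739-23678888, plus strand) has TTTGAA at 29 and CCAAT at 73. The window of E2F2 (chr1:23531234-23531383, minus strand) has the E2F site at 77, 42 and 38, the last pair overlapping on opposite strands, and that of H1-3 (chr6:26234988-26235137, minus strand) has TATAAA at 30 and CCAAT at 55. These matches describe letters in the window and are not evidence of binding.

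The other 5 of 10 motifs were searched in the same promoters. The GC box GGGCGG was present in 76.7% of the promoters of genes that rose by at least 1, in 56.8% of those that fell by as much and in 68.2% of tested genes. The AP-1 site TGANTCA was present in 3.40%, 5.01% and 3.54% in the same order, the CRE site TGACGTCA in 3.90%, 3.54% and 3.06%, the E-box CACGTG in 7.47%, 7.81% and 8.90%, and the core of the antioxidant response element TGACNNNGC in 13.8%, 9.52% and 12.1%. TGANTCA, TGACGTCA and TGACNNNGC begin alike, so 1 stretch can match more than 1 of them.

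Immediate-early genes, which cells transcribe within minutes of a growth signal, rose. Of 22 tested genes of AP-1 and the immediate-early group 18 rose, 13 of them by at least 1, and 3 fell, with a median of 1.40. FOSL1, EGR2, EGR3 and KLF2, 4 of those that rose, passed the filter on low levels through the CCS1477 libraries, so the filter favoured their direction. EGR1, a zinc-finger transcription factor (chromosome 5, 138465490 to 138469315), stood at 19.5, 23.3 and 21.7 CPM with DMSO and 130.2, 143 and 144 CPM with CCS1477, a log2 change of 2.62 ± 0.07 (adjusted p = 1.74e-10). NR4A1, an orphan nuclear receptor (chromosome 12, 52022832 to 52059507), stood at 5.22, 6.33 and 5.73 CPM with DMSO and 40.8, 39.0 and 37.3 CPM with CCS1477, a log2 change of 2.65 ± 0.09 (adjusted p = 1.01e-09). Every treated library of both genes lay above every control library. The AP-1 subunits JUND, JUN, FOS, FOSL1, FOSB and JUNB rose by 1.98, 1.90, 1.69, 1.58, 1.13 and 0.44. ATF3, a stress-induced factor of the same dimer family, rose by 2.39, EGR2 and EGR3 by 2.25 and 2.08 and KLF2 by 2.11. The 3 that fell were NR4A2, a relative of NR4A1, by 1.90, the Kruppel-like factor KLF4 by 0.85 and the AP-1 subunit FOSL2 by 0.50. SRF, the factor that binds the CArG box of many of these genes, rose by 0.32. The CArG box was present in 2 of 17 promoters of the list (11.8%), against 0.905% of tested genes. It was present in 0.679% of promoters of genes that rose by at least 1 and in 1.47% of those that fell by as much. The promoter of EGR1 (chr5:138465329-138465478, plus strand) is shown because it holds 2 of them, at 105 and 83 bases before the start, in capitals.
EGR1: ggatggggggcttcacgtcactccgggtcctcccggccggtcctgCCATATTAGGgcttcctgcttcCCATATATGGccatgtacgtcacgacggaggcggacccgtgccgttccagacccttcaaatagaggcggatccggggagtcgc

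Genes that the ERK pathway raises to restrain itself rose more often than they fell. Of 13 tested genes of ERK feedback 8 rose and 2 fell, with a median of 0.58. ETV5, an ETS factor induced by ERK, stood at 12.8, 13.9 and 13.4 CPM with DMSO and 68.8, 67.5 and 68.3 CPM with CCS1477, a log2 change of 2.27 ± 0.06. DUSP6, DUSP5, DUSP1 and DUSP4, phosphatases of MAP kinases, rose by 1.83, 1.61, 1.18 and 0.87, and SPRY4, an inhibitor of receptor signalling to RAS, by 1.64. The 2 that fell were ETV4, by 0.85, and SPRY1, by 0.61. Upstream, the list of the EGF receptor family, MET and ligands also held the fibroblast growth factor receptor genes FGFR1 and FGFR3. Of its 13 tested genes 4 rose, each by at least 1, and 8 fell, with a median of -0.28. Ligand genes HBEGF and TGFA rose by 1.57 and 1.42, and the receptor genes EGFR and ERBB3 fell by 0.97 and 0.93. FGFR1, 1 of the 4 that rose, changed by 2.65 ± 0.24, from 2.09 ± 0.817 to 14.4 ± 1.18 CPM. FGFR3, 1 of the 8 that fell, changed by -0.84.

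The list of YAP/TEAD targets also holds the regulators YAP1 and TEAD1, which fell by 0.52 and 0.39. It split, with 9 of its 17 tested genes rising and 7, these 2 among them, falling and a median of 0.16. CCN2 and ANKRD1 were its highest members, and CCN1, a matricellular relative of CCN2, stood at 67.2, 70.3 and 70.3 CPM with DMSO and 359, 372 and 378 CPM with CCS1477, a log2 change of 2.35 ± 0.04. No other member rose by 1 or more, and FJX1, a secreted glycoprotein, fell by 1.07. Among 14 tested genes of TGF-beta and activin 3 rose and 7 fell, with TGFB1, the ligand, up by 2.22 and FST, the activin antagonist follistatin, down by 2.70. Of 14 tested integrin and matrix receptor genes 5 rose and 4 fell, and 8 rose with library totals. ITGA2 and ITGA3, chains of collagen and laminin receptors, rose by 2.54 and 1.94. CAV1, the coat protein of caveolae, fell by 1.26. Of 22 neuronal genes 8 were tested and 7 rose, but NGFR and BAIAP3 passed the filter on low levels through the CCS1477 libraries and most other members did not pass it, so the count is no measure of the list. Beside TUBB3 and BAIAP3, the glycolytic enzyme ENO2 rose by 2.24, the kinesin KIF1A by 1.66, the neurotrophin receptor NGFR by 2.17, the microtubule protein MAPT, or tau, by 1.62 and the stathmin STMN3 by 1.23. This list was drawn up with earlier results of these data known, so its direction is no independent evidence, and SYP, the one neuroendocrine marker measured, rose beside it to no more than 5.66 CPM.

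Epithelial identity genes moved apart. Of 21 tested genes of epithelial adhesion and keratins 6 rose and 11 fell, with a median of -0.11. KRT8 and KRT18, the keratin pair of simple epithelium, rose by 0.45 and 0.48, whereas KRT80 fell by 2.63. All 5 tested secretory and mucous genes of a list of 20 fell, with a median of -1.23, including MUC16, the membrane mucin MUC1 (-1.63), the calcium-binding protein S100P (-1.23), AGR2, a disulphide isomerase of mucus cells (-0.89), and the protease inhibitor SLPI (-0.46). Of 7 tested lung and foregut lineage genes 2 rose and 5 fell. CEBPA, a differentiation factor of lung epithelium, and SOX2, a foregut factor, fell by 1.45 and 1.22, and ABCA3, the lipid transporter of lamellar bodies, rose by 2.01.

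Because the series contrasts lines by NRF2 status, the NRF2 lists were read in detail. Of 11 tested genes of NRF2, KEAP1 and their partners 6 rose and 3 fell, with a median of 0.19, and SQSTM1, the autophagy receptor p62, rose by 1.25. Its targets in drug metabolism and transport split, with 4 of 13 tested genes rising and 5 falling. EPHX1, microsomal epoxide hydrolase, stood at 7.90, 7.79 and 8.63 CPM with DMSO and 43.1, 40.1 and 44.0 CPM with CCS1477, a log2 change of 2.29 ± 0.07, while the aldo-keto reductases AKR1C2 and AKR1C3 fell by 3.10 and 2.80. AKR1C genes are near-identical copies, so their separate values are uncertain. AKR1C2 and ABCC2, 2 of the 5 that fell, reached 1 CPM in every DMSO library but not in every CCS1477 library. The filter thus favoured their direction. NQO1, the quinone reductase often used as an NRF2 readout, rose by 0.73 ± 0.06. Of 21 tested targets in glutathione, thioredoxin and iron handling 10 rose and 7 fell, with a median of 0.13. Both ferritin chains and TXNRD1, a thioredoxin reductase (1.39), were among those that rose. For NADPH supply 3 of 10 rose and 5 fell, with ME1, malic enzyme, down by 2.30. The filter favoured the fall of ME1 in the same way.

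Both lipid synthesis lists held more genes that rose than fell. Of 22 tested genes of cholesterol synthesis and uptake 13 rose and 6 fell, with a median of 0.24. IDI1, an isomerase of the mevalonate pathway, rose by 1.52 ± 0.05, from 81.7 ± 0.451 to 245 ± 13.8 CPM, and INSIG1, the sterol sensor partner, by 1.41. Of 11 tested genes of fatty acid synthesis 7 rose and 3 fell, and ME1, whose direction the filter favoured, was 1 of the 3. ACSL3, which activates fatty acids, rose by 1.63, ACLY, which supplies cytosolic acetyl-CoA, by 1.01 and FASN, fatty acid synthase, by 0.81, while the elongase ELOVL6 fell by 1.40. Glycolysis and hypoxia genes rose in 12 and fell in 8 of 25 tested, with GAPDH at 0.91 and the mitophagy gene BNIP3 at 1.81. PFKP, ALDOC and ANKRD37, 3 of the 12, passed the filter on low levels through the CCS1477 libraries, so it favoured their direction.

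Stress response lists differed in their counts. Of 24 tested genes of ATF4 and the amino acid response 6 rose and 14 fell, with a median of -0.33, and of 20 tested genes of ER chaperones and the unfolded protein response 6 rose and 13 fell, with a median of -0.45. HERPUD1, of ER-associated degradation, fell by 2.01, XBP1, a transcription factor of secretory capacity, by 1.48, ATF4 itself by 0.85 and DDIT4, an inhibitor of mTORC1, by 1.86. ASNS, asparagine synthetase and a standard ATF4 target, rose by 0.65. Heat shock protein genes rose in 7 and fell in 8 of 15, with 4 rising without CCS1477 replicate 3 or DMSO replicate 1, and autophagy and lysosome genes rose in 12 and fell in 5 of 24.

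Protein synthesis genes fell by small amounts. Of 25 tested genes of ribosome biogenesis none rose and 21 fell, with a median of -0.34, and of 25 cytosolic ribosomal protein genes 1 rose, a call lost without CCS1477 replicate 1, CCS1477 replicate 3 or DMSO replicate 1, with the replicate block and in the fit over 18 libraries, and 20 fell, with a median of -0.25. Processed pseudogenes of ribosomal proteins could share their reads. Of 12 tested genes of MYC and its network 3 rose and 8 fell, among them MYCN and MYCL, relatives of MYC, by 1.78 and 1.46, and MXD4, an antagonist of MYC, rose by 1.41. That count of 8 became 3 with library totals, 3 without CCS1477 replicate 2 or DMSO replicate 2, 5 without CCS1477 replicate 3 and 4 without DMSO replicate 1.

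Survival and NF-kB genes gave mixed counts. Of 16 tested BCL2 family genes 4 rose and 10 fell, with the survival gene MCL1 at 1.10 and the killer gene BMF at -1.35. Of 9 tested NF-kB targets and cytokines, from a list of 24, 7 rose and 1 fell, and none fell with library totals, without CCS1477 replicate 2 or without DMSO replicate 3. RELB and NFKB2, subunits of the noncanonical branch, rose by 1.96 and 1.03, and BIRC3, an inhibitor of apoptosis, by 0.99. Interferon-stimulated genes rose in 5 and fell in 10 of 17 tested, with IFITM1 and IFIT2, antiviral effectors, at -2.30 and -2.13. MHC class I presentation genes rose in 7 and fell in 3 of 12, and proteasome subunit genes in 12 and 3 of 24, with 5 falling under relative log expression.

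Developmental and hormone pathways included several large single-gene changes. Of 18 tested WNT pathway genes 1 rose and 11 fell, with a median of -0.29. The ligands WNT3 and WNT7B fell by 2.24 and 1.15, and AXIN2 and LEF1, a feedback inhibitor and a nuclear factor of the canonical branch, by 1.08 and 1.14. NOTCH pathway genes rose in 5 and fell in 4 of 13. Of 17 tested nuclear receptors and targets 9 rose and 6 fell, with PPARG, the fatty acid sensor, down by 2.03, RXRA, its dimer partner, down by 1.55 and TIPARP, an aryl hydrocarbon receptor target, up by 1.67. Clock genes rose in 9 and fell in 4 of 17, with PER2, of the repressor arm, down by 1.43 and BMAL2, of the activator arm, up by 1.90.

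Chromatin regulator genes passed the threshold about as often upwards as downwards. Of 12 tested lysine acetyltransferase genes 2 rose and 4 fell, none by 1 or more, and 4 rose with library totals. Of 12 genes listed under BET proteins, HEXIM and P-TEFb 4 rose and 2 fell, and not all of them belong to these families. SERTAD1, a member of none of them, rose by 1.89, and H2BC21, a histone gene, fell by 0.46. HEXIM2, an inhibitor of P-TEFb, fell by 1.12. It reached 1 CPM in every DMSO library but not in every CCS1477 library, so the filter favoured its direction. Of 16 histone deacetylases and sirtuins 5 rose and 2 fell, and of 20 Polycomb and histone methyltransferase genes 6 rose and 5 fell, where EED and CBX2, Polycomb subunits, fell by 1.20 and 1.11. Nuclear-encoded respiratory chain genes rose in 8 and fell in 5 of 22. None of the 15 mitochondrially encoded RNAs passed the threshold in limma or in limma-voom, and 1 had an unadjusted p under 0.05. Without DMSO replicate 3, the library with the highest mitochondrial share, 12 of them rose, and without DMSO replicate 2, 2 fell. Of 9 tested mesenchymal genes 2 rose and 2 fell, with the collagen gene COL1A1 up by 1.52 and the fibronectin gene FN1 down by 0.74. The filter favoured the direction of the others, ITGA5, which rose, and LOX, which fell.

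The response was then compared with that of H460 and H2023 in 1 fit over the 18 libraries, testing the difference in log2 change itself. Among 11757 genes tested in every line, the ABC-1 change differed from the mean change of the other lines in 5956 (50.7%), above it in 2977 and below it in 2979. The ABC-1 change lay above that of both lines, each by its own test, in 1862 genes (15.8%) and below both in 1889 (16.1%). Leaving out the H460 library with the low mitochondrial share gave 6113, 1930 and 1945. Line and NRF2 status cannot be told apart here, since only 1 line is called wildtype, and each line has its own table with its own scaling.

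All 24 G2/M genes had a lower change in ABC-1 than in both other lines, with medians of -0.17 in H460 and -0.51 in H2023 beside -1.64 in ABC-1. Of 27 G1/S genes 23 were lower than in both, with medians of -0.24 and -0.76 in H460 and H2023. The histone median was -1.21 in H2023 and -0.01 in H460, and 9 histone genes were below both. A higher change in ABC-1 than in both other lines was found in 8 of 13 ERK feedback genes and 8 of 19 AP-1 and immediate-early genes. The same held for 12 of 21 cholesterol genes and 10 of 14 integrin genes. The ABC-1 medians of these 4 lists were 0.58, 1.21, 0.26 and 0.06 in that order, and 5 integrin genes rose and 4 fell in ABC-1. Their medians in H460 and H2023 were -0.16 and -0.30 for ERK feedback, 0.39 and 0.07 for the immediate-early genes, -0.12 and -0.08 for cholesterol and -0.24 and -0.69 for integrins. Without the H460 library the counts were 10 for histones, 10 for the immediate-early genes and 13 for cholesterol. The H460 medians were then -0.15 for G2/M, -0.22 for G1/S, -0.06 for histones, -0.15 for ERK feedback, 0.26 for the immediate-early genes, -0.12 for cholesterol and -0.27 for integrins.

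**Figure D4:**
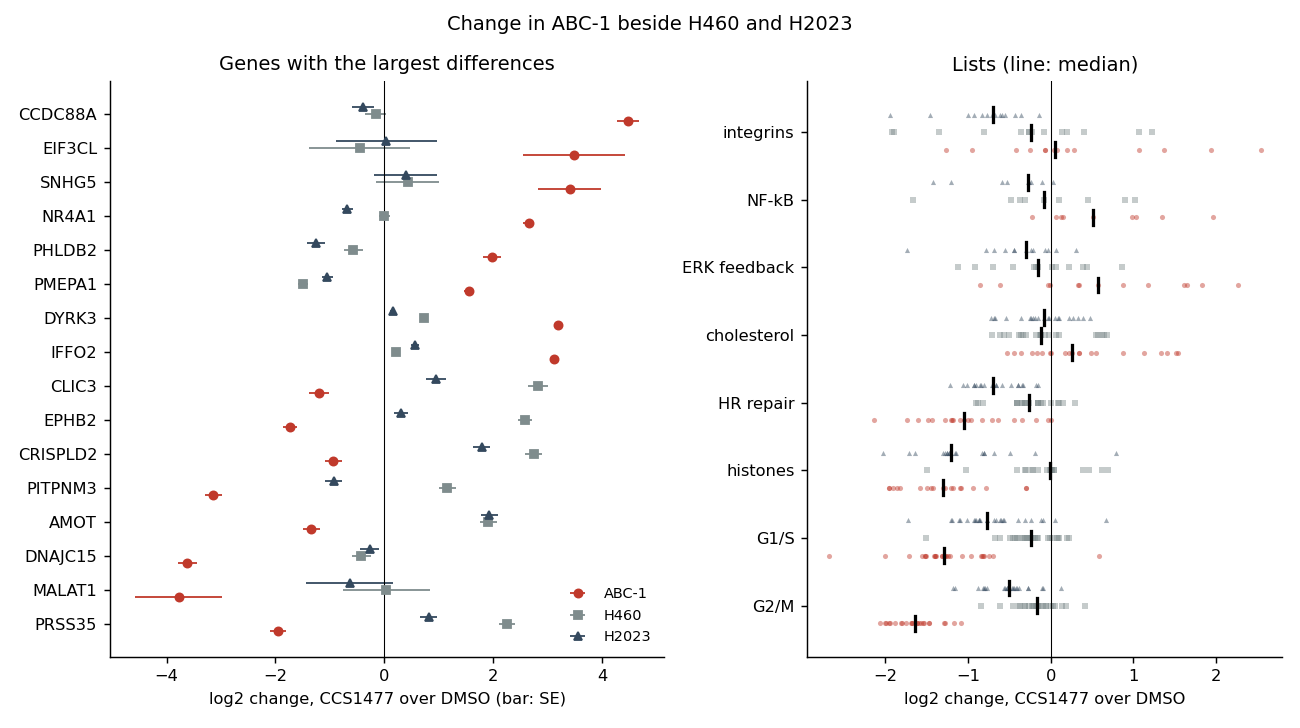
Log2 change with CCS1477 in ABC-1 (red circles), H460 (grey squares) and H2023 (dark triangles). The left panel shows the 8 highest and 8 lowest differences with bars for the SE, and the right panel the genes of 8 lists with a black bar for each median, where the G2/M median is -1.64 in ABC-1, -0.17 in H460 and -0.51 in H2023.

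Several large ABC-1 changes were weak or reversed in at least 1 other line, while others were shared. NR4A1 changed by -0.00027 in H460 and -0.68 in H2023, giving a difference of 2.99 ± 0.12 from their mean (adjusted p = 1.74e-12). TUBA1A changed by -0.20 in H460 and 2.27 in H2023, with a difference of 2.46 ± 0.06, and EPHX1 by -0.46 in H460 and 0.11 in H2023, with a difference of 2.47 ± 0.05. Ferritin changed less in the other lines: FTL changed by 0.03 in H460 and 0.36 in H2023 and FTH1 by -0.08 in H460 and 0.08 in H2023, and the differences for ABC-1 were 1.25 ± 0.06 and 1.31 ± 0.07. CDK6, which rose in ABC-1, changed by -0.68 in H460 and -0.67 in H2023, a difference of 1.50 ± 0.06. EGR1 was shared, at 1.81 in H460 and 2.47 in H2023, and its ABC-1 change was not above both. Other shared rises were those of BAIAP3 (3.97 in H460 and 3.64 in H2023), GJA3 (1.96 and 3.57) and TPPP (2.75 and 2.50). Of these only TPPP had an ABC-1 change above both. On the falling side LIPH changed by -0.32 in H460 and -0.38 in H2023, a difference of -1.87 ± 0.07. KRT80 and FST fell in every line, KRT80 by 2.87 in H460 and 2.59 in H2023 and FST by 3.33 and 3.19. Without the H460 library that stood apart, NR4A1 changed by -0.15 in H460, and the differences were 3.07 for NR4A1, 2.46 for TUBA1A, 2.48 for EPHX1, 1.26 for FTL, 1.27 for FTH1, 1.48 for CDK6 and -1.88 for LIPH. BAIAP3, GJA3, TPPP, KRT80 and FST then changed by 3.77, 1.94, 2.74, -2.94 and -3.35 in H460.

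Sharing of direction was common among the larger changes. Of the 820 genes that rose by at least 1 in ABC-1, 470 of the 686 tested in H460 also rose there (68.5%), and 522 of 727 in H2023 (71.8%), where 29.6% and 29.7% of all tested genes rose. Of the 1112 that fell by at least 1, 458 of 787 also fell in H460 (58.2%) and 634 of 845 in H2023 (75.0%), where 26.2% and 31.5% of all tested genes fell. Without the H460 library that stood apart, the H460 shares were 64.7% and 60.5%, beside 27.6% and 29.9% of all tested genes. Each line has its own DMSO libraries, so no control is shared in these counts. The genes were chosen on the ABC-1 contrast alone.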

How the data were processed

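Total RNA of ABC-1, H460 and H2023 cells, 3 libraries a group in 6 groups, was sequenced in read pairs on a DNBSEQ instrument from strand-preserving (directional) MGI libraries, per the labels' protocols. The build is GRCh38, per the submitters' processing notes. Aligner, counting program and its use of strand: not given in the sources used here. The authors deposited log2 values, 1 table per line. The values themselves are log2 of whole reads divided by a library's own factor with 4 added, which puts a gene without reads at 2, and 100% of values up to 1000 reads gave whole reads within 0.1. Levels (CPM) were computed from those reads over all reads of a library, and log2 changes were taken on the deposited scale, which understates the change of low genes.

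Gene rows that reached 1 CPM in 3 or more of the 6 ABC-1 libraries were tested with limma 3.58.1 in R 4.3.3 (lmFit and eBayes with trend), two-sided, with Benjamini-Hochberg adjustment over all 13543 tested genes and a threshold of 0.05. The line comparison was 1 limma fit of 6 group means over genes tested in every line. The design planned for counts or values to which 1 would be added, and the deposited constant was kept instead. Transcript rows were left out of the tests. Columns bear the same names in each table, so their line came from the table's name. Gene positions came from GENCODE 29 on GRCh38, which held 16010 of the 16910 genes, and promoters from RefSeq, GRCh38.p14.

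Genes named in the text are EP300, CREBBP, NFE2L2, KEAP1 and MYC. Added to them are the 14 highest and 14 lowest changes among non-overlapping genes whose higher group averaged 5 CPM or more, and the 6 most abundant genes in each direction past a change of 1. Up to 3 members of each of 50 lists in each direction by smallest p, the 6 largest regulator changes and the 8 highest and 8 lowest line differences complete the rule. The line differences were ranked among genes that differed from both lines and had at least 5 CPM in the higher ABC-1 group. Clone, antisense and small RNA names were left out of the rankings of the highest and lowest changes and differences. Other members of the lists were named after their values were seen, and some genes that the rule picks are not reported here. The lists and the rule were chosen with earlier results of these data known. Alternatives covered scaling, filter, constant, test, replicate block and single libraries left out. Adding transcript reads and leaving out 1 H460 library were chosen after seeing the data.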

Additional observations from a re-analysis of the deposited data

Results flagged for a closer look

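These 16 genes were picked out because the test of the difference itself placed their ABC-1 change apart from that of both other lines. They had the 8 highest and 8 lowest such differences among genes with at least 5 CPM in the higher ABC-1 group. Clone, antisense and small RNA names were left out. The difference is the ABC-1 log2 change minus the mean of the changes in H460 and H2023, ± SE. On the higher side, CCDC88A changed by 4.48 in ABC-1, -0.16 in H460 and -0.40 in H2023, a difference of 4.76 ± 0.24. NR4A1 had a difference of 2.99 ± 0.12, DYRK3 of 2.74 ± 0.07 and IFFO2 of 2.72 ± 0.09. PHLDB2, a protein of cortical microtubule attachment, changed by 1.98 in ABC-1, -0.57 in H460 and -1.26 in H2023, a difference of 2.89 ± 0.21, and PMEPA1, a TGF-beta feedback inhibitor, by 1.56 in ABC-1, -1.49 in H460 and -1.04 in H2023, a difference of 2.83 ± 0.11. Both fell in the other lines and rose in ABC-1. SNHG5 had a difference of 3.00 ± 0.71. The ABC-1 changes of CCDC88A and SNHG5 were 2.83 and 1.71 with transcript reads added, and these differences rest on gene rows alone. EIF3CL, a near-identical copy of the translation factor gene EIF3C, had a difference of 3.70 ± 1.15, with 13.4, 0 and 0 CPM with DMSO and 9.27, 11.2 and 12.4 CPM with CCS1477 in ABC-1. Those groups overlap, and EIF3C itself changed by -0.21.

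On the lower side, PRSS35, a serine protease homologue, changed by -1.96 in ABC-1, 2.26 in H460 and 0.81 in H2023, a difference of -3.49 ± 0.18. AMOT, the YAP-binding protein angiomotin, changed by -1.34 in ABC-1, 1.92 in H460 and 1.93 in H2023, a difference of -3.26 ± 0.19. EPHB2, an ephrin receptor, changed by -1.74 in ABC-1, 2.59 in H460 and 0.31 in H2023, a difference of -3.19 ± 0.16, and CLIC3, a chloride channel family protein, by -1.20 in ABC-1, 2.83 in H460 and 0.95 in H2023, a difference of -3.09 ± 0.23. CRISPLD2, a secreted protein, had a difference of -3.20 ± 0.19, with -0.94 in ABC-1, 2.74 in H460 and 1.79 in H2023. These 5 genes fell in ABC-1 and had positive changes in both other lines. PITPNM3 had a difference of -3.25 ± 0.19 and DNAJC15, a mitochondrial co-chaperone, of -3.28 ± 0.21. MALAT1 had a difference of -3.48 ± 0.98, which rests on gene rows alone, since its ABC-1 change turned with transcript reads. No difference named here moved by over 1.5 times without the H460 library that stood apart.

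Reads listed under transcripts rather than genes, outside the main measurement, took 10.2, 9.92 and 10.3% of the reads with DMSO and 10.5, 10.8 and 10.6% with CCS1477. The means were 10.2 ± 0.200% and 10.6 ± 0.121% (SD, n = 3), and the groups did not overlap.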

How the results depend on the processing

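Over the alternatives for scaling, filter, constant, test and libraries left out, the number of genes past the threshold in ABC-1 ranged from 7900 (1 fit over 18 libraries) to 9552 (transcript reads added), against 8949. Requiring an absolute log2 change of at least 1 left 1932 genes, 820 higher and 1112 lower. Scaling by library totals moved the median of all genes from 0.01 to 0.07 and gave 5183 higher and 4005 lower. Leaving out 1 ABC-1 library gave 8407 to 8699 genes, and the difference between lines ranged from 5270 to 6113 genes over its alternatives. The replicate block gave 8768 genes in ABC-1 and 5808 for the difference. Same-numbered libraries did not deviate together (correlations of -0.104, -0.0433 and -0.0709), so the numbers were not taken as pairs. Of 5184 alternative values of 290 named genes, 5144 kept their side of the threshold and, where past it, their direction, and 12 genes changed call under some setting. Among named genes past the threshold only MALAT1 turned its direction, to 0.74 with transcript reads added, where those reads were the sole change. EP300, not past the threshold, turned from -0.04 to 0.02 with library totals. EIF3CL lost its difference without DMSO replicate 2 (2.74, adjusted p = 0.0529) or replicate 3 (adjusted p = 0.0517). Of 400 list medians, 19 moved by over 1 SD, by at most 0.25. At 14483979 to 17483291 reads a library, genes of a few CPM rest on few reads, which limits the precision of their changes.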
